A study of Homo sapiens with 12 samples.

Results

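A group of 10 genes was followed here because each member is a known transcriptional target of p53 that acts in metabolism or in the response to stress: SESN1, SESN2, TIGAR, TP53INP1, FDXR, GDF15, ACER2, SPATA18, GLS2 and BTG2. They were chosen by name, with earlier results of these data known. Of the 10, 8 were analysed out of 20595 genes in the deposited table. SESN2 and ACER2 were not analysed here. The RNA came from a pair of established human lung adenocarcinoma (LUAD) lines, A549 and H1792, both described by the study as MDM2 amplified. Here p53 is taken to be wild type (WT) in A549 and mutant in H1792, which is how the study's text mostly has it, although its account of the sequencing design swaps them and a legend calls A549 mutant. Cells of each line were kept for 48 h in DMSO, the solvent, or in 1 μM RG7112, and the 4 groups held 3 replicates each (12 samples). The names of the table's columns give the dose as 0.1 μM, and the dose in the sample labels was followed. Each p53 state was represented by 1 cell line, so p53 status cannot be told apart from every other difference between A549 and H1792. Nothing in the labels says that replicates came from separate cultures, so p-values measure the spread between these samples, which may be technical.

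p53 is a transcription factor that MDM2 binds and marks for degradation, and RG7112 is a nutlin that occupies the p53 pocket of MDM2. Beside its targets in cell cycle arrest and apoptosis, p53 activates genes that limit oxidative damage, redirect glucose and glutamine, restrain growth signalling and maintain mitochondria. Sestrins restrain mTORC1 and support antioxidant defence, TIGAR lowers glycolytic flux, FDXR feeds electrons to mitochondrial enzymes, and GDF15 is a secreted stress hormone. The pathway is of interest in LUAD because amplified MDM2 can hold wild-type p53 low.

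The p53 recognition element is made of a pair of 10-base half-sites. RefSeq promoter windows (GRCh38.p14, 250 bases before to 50 after a start) matched 7 of the 8 analysed genes and gave 10 windows, since SESN1 had 3 and FDXR 2. These windows were searched on both strands for the p53 half-site consensus, and an exact half-site lay in 2 of the 10 (20%), against 6.63% of all 35116 windows. No window of the 10 held a pair of exact half-sites at most 13 bases apart, as 0.0285% of all windows did. An adjoining pair of 20 bases with up to 3 mismatches, a limit chosen after the sequences had been seen, lay in 4 of the 10 (40%) against 5.2% of all. The 4 pairs are shown because they are the closest matches to the element near the members' starts, with capitals for letters that match the consensus and lower case for mismatches, and each is written 5′ to 3′ on the strand of its gene.
SESN1, chr6:109009018-109009037, minus strand, bases -49 to -30 from the start: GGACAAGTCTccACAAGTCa
FDXR, chr17:74872996-74873015, minus strand, bases -21 to -2: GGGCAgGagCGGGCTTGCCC
GDF15, chr19:18386186-18386205, plus strand, bases 29 to 48: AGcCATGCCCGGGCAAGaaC
GLS2, chr12:56488113-56488132, minus strand, bases 30 to 49: AGGCTTGCTgGGGCATGCgC
The exact half-sites of SESN1 and FDXR, in capitals in the 100 bases before those starts, show how close to the start they lie.
SESN1, chr6:109008989-109009088, minus strand: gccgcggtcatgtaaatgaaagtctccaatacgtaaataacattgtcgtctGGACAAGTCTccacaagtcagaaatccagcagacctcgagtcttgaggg
FDXR, chr17:74872995-74873094, minus strand: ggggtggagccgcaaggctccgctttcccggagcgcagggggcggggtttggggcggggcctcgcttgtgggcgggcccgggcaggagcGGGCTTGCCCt
These matches are descriptions of letters and not of binding, and a window without a match says nothing about the factor. Counts per gene do not separate the 3 starts of SESN1.

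The libraries held 2011916 to 6218825 estimated counts (median 3928092). Levels are given as CPM, counts relative to the library total, scaled by the trimmed mean of M-values (TMM). A gene was called when edgeR's quasi-likelihood test gave a Benjamini-Hochberg adjusted p under 0.05 over all genes tested and the absolute log2 fold change was over 1. The p53 targets used to check the labels, CDKN1A and MDM2, rose in A549 by 3.58 (SE 0.70, edgeR adjusted p = 0.0252) and 2.99 (SE 0.45, edgeR adjusted p = 0.0102) on the log2 scale, and were not called in H1792. The summed level of 6 epithelial markers in A549 was 14484 to 18967 CPM with DMSO and 17110 to 24068 CPM with RG7112. In H1792 it was 1818 to 2185 and 1069 to 1337 CPM, without overlap. KRT19 rose in A549 (log2 1.27, edgeR adjusted p = 0.00602), and KRT18 fell by 1.04 on the log2 scale in H1792 (edgeR adjusted p = 0.00437). The part of these changes in the members' values was not tested. Some of the 6 were scarce, with EPCAM at most 1.39 CPM in A549 and 6.23 CPM in H1792 and CDH1 at 0 to 1.06 CPM in H1792 with DMSO and 0 to 1.03 CPM with RG7112. Markers of immune, endothelial and fibroblast cells summed to 1.91 to 8.87 CPM in A549 and 1113 to 1426 CPM in H1792, where COL1A1 and COL1A2 made up most of the sum, while CD3E was at 0 in every library. In bulk samples, fewer cells of a type and less RNA per cell cannot be told apart.

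In A549, RG7112 raised FDXR, SESN1 and SPATA18, and GDF15 passed the adjusted p but stopped just short of the fold threshold. TIGAR, BTG2 and TP53INP1 were higher in every treated sample without passing the adjusted p. Of the 7 genes tested, 3 were called higher and 0 lower, where 3.18% of 10739 tested genes were called higher and 3.01% lower. The members and the lists below were chosen with earlier results of these data known. Their shares beside those of all genes are therefore descriptions and no test. The median log2 fold change of the 7 was 1.59, beside -0.01 for all genes tested. In all 7 tested genes the lowest RG7112 sample was above the highest DMSO sample, as in 16.2% of all genes tested. TP53INP1 and BTG2 passed the filter on low counts only with the help of their RG7112 samples, so a rise was favoured for them. GLS2, which failed the filter, also did not overlap. The members were scaled over the 12 samples, and this share, like that of H1792 below, within the line.

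**Figure D1:**
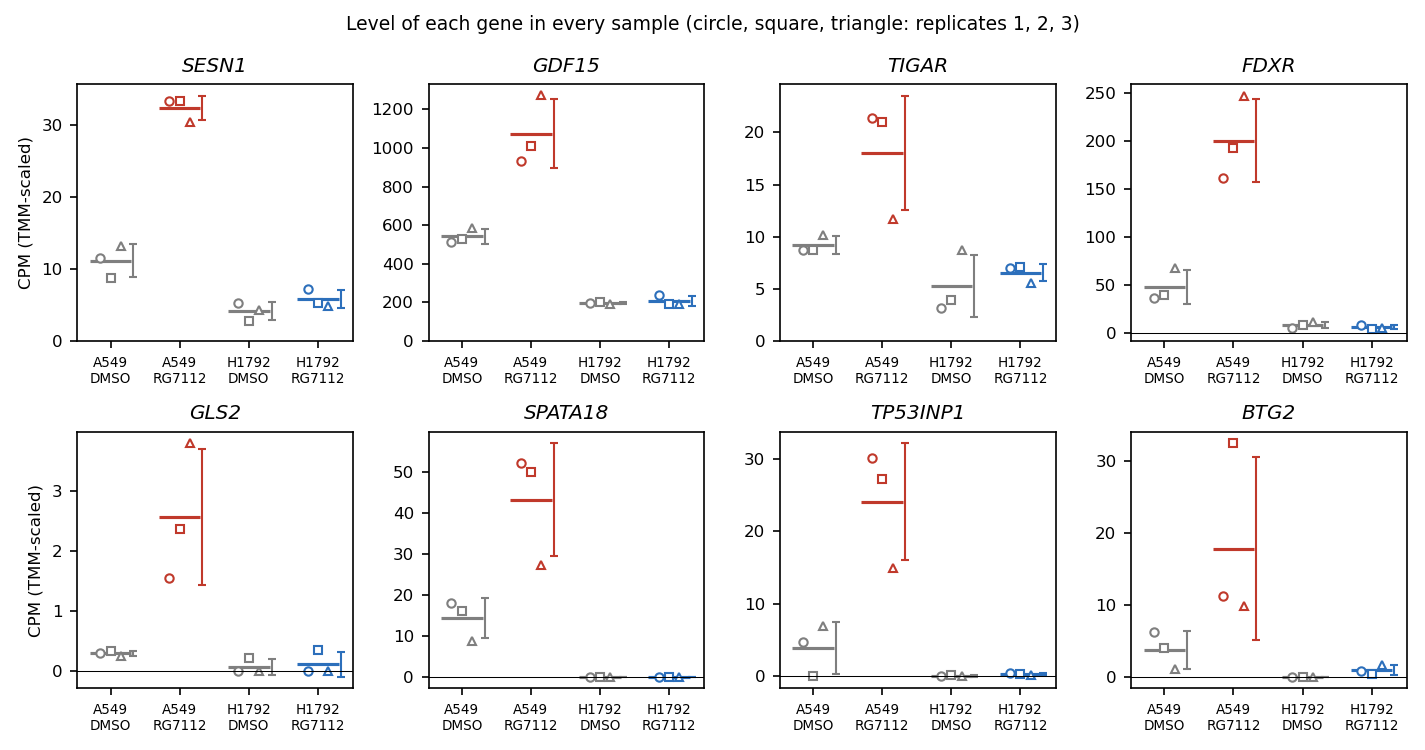
CPM of each analysed gene (vertical axis, linear, a scale of its own in each panel) in every sample of the 4 groups, with circles, squares and triangles for replicates 1, 2 and 3, lines for means and bars for the SD. In A549 the RG7112 samples lie above the DMSO samples in all 8 panels, and in H1792 SPATA18 is at 0 in every sample.

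The genes that restrain growth signalling come first. SESN1 (ENSG00000080546, chromosome 6, 108986437 to 109094819) encodes sestrin 1, which restrains mTORC1. Its level in A549 was 11.6, 8.7 and 13.2 CPM in DMSO replicates 1, 2 and 3 and 33.3, 33.4 and 30.4 CPM in the RG7112 replicates. The treated samples were close together and all stood well above the controls. The fold was 2.91 (log2 1.54, SE 0.24, edgeR adjusted p = 0.0108), and the adjusted p rose to 0.0503 to 0.0551 when DMSO replicate 1, DMSO replicate 2 or RG7112 replicate 1 was left out. In H1792 SESN1 measured 5.29, 2.77 and 4.36 CPM with DMSO and 7.23, 5.34 and 4.89 CPM with RG7112. These groups overlapped, and the log2 fold change was 0.57 (SE 0.38, edgeR adjusted p = 0.277). An antisense gene, AL390208.1, overlaps SESN1.

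GDF15 (ENSG00000130513, chromosome 19, 18374731 to 18389176) encodes a secreted member of the TGF-β superfamily that signals through the brainstem receptor GFRAL. It measured 512, 528 and 587 CPM in the A549 DMSO samples and 934, 1011 and 1274 CPM in the RG7112 samples. Every treated sample was far above every control, and the fold was 1.98 (log2 0.98, SE 0.15, edgeR adjusted p = 0.0106). The log2 value passed 1 without DMSO replicate 3 (1.05), RG7112 replicate 1 (1.07) or RG7112 replicate 2 (1.03). In H1792 GDF15 measured 198, 204 and 190 CPM with DMSO and 237, 192 and 192 CPM with RG7112, so that RG7112 replicate 1 alone stood above the control range. The log2 fold change there was 0.14 (SE 0.10, edgeR adjusted p = 0.293). After a correction for GC content it was 0.61 (edgeR adjusted p = 0.00402, and 0.00402 to 0.748 over all alternatives), under the fold threshold. GDF15 made up 73.8 to 93.7% of the summed CPM of the 8 genes in the 12 samples.

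TIGAR and FDXR act on carbon and electron flow. TIGAR (ENSG00000078237, chromosome 12, 4307763 to 4354593) encodes a phosphatase that lowers fructose-2,6-bisphosphate and so favours the pentose phosphate pathway. It measured 8.75, 8.70 and 10.2 CPM in the A549 DMSO samples and 21.4, 21.0 and 11.7 CPM in the RG7112 samples. RG7112 replicate 3 lay just above the controls and well below the other two. The log2 fold change was 0.96 (SE 0.31, edgeR adjusted p = 0.113) and became 1.20 (edgeR adjusted p = 0.0422, and 0.034 to 0.288 over all alternatives) without that replicate. It was also called after the GC correction (log2 1.07, edgeR adjusted p = 0.0441). In H1792 TIGAR measured 3.17, 3.92 and 8.72 CPM with DMSO and 6.97, 7.12 and 5.59 CPM with RG7112. The groups overlapped, with a log2 fold change of 0.41 (SE 0.44, edgeR adjusted p = 0.498) that turned to -0.04 after the GC correction. A protein-coding gene, AC008012.1, overlaps TIGAR on the same strand, and how estimated counts were divided between them is not known.

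FDXR (ENSG00000161513, chromosome 17, 74862497 to 74873031) encodes ferredoxin reductase, the mitochondrial flavoprotein that passes electrons from NADPH to the ferredoxins for steroid and iron-sulfur cluster synthesis. It measured 35.9, 39.1 and 67.5 CPM in the A549 DMSO samples and 161, 193 and 247 CPM in the RG7112 samples. The lowest treated sample was above the highest control by a wide margin, and the fold was 4.21 (log2 2.07, SE 0.29, edgeR adjusted p = 0.00775). FDXR was called in all 15 refitted alternatives, where its log2 fold change was 1.85 to 2.42. In H1792 it measured 4.93, 7.85 and 11.3 CPM with DMSO and 8.27, 3.91 and 4.66 CPM with RG7112. The groups overlapped, at a log2 fold change of -0.44 (SE 0.44, edgeR adjusted p = 0.467).

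GLS2 (ENSG00000135423, chromosome 12, 56470944 to 56488414) encodes the liver-type mitochondrial glutaminase, which turns glutamine into glutamate. It was close to the limit of detection and did not pass the filter on low counts in any of the reported fits. The A549 DMSO samples held 1, 2 and 1 counts and the RG7112 samples 10, 5 and 14, or 0.312, 0.341 and 0.249 CPM against 1.55, 2.38 and 3.8 CPM. The groups did not overlap, and the ratio of pooled counts, scaled for depth, was 7.75 with a counting interval of 2.72 to 30.3 (counting error only). On log2(CPM + 1), the exact permutation test (two-sided) gave p = 0.1, the smallest that 3 samples against 3 allow. In the 5 alternatives whose filter let GLS2 through in A549, its fitted log2 fold change was 2.84 to 3.23 and was not called (edgeR adjusted p 0.0669 to 0.168). H1792 held 0, 1 and 0 counts with DMSO and 0, 2 and 0 with RG7112, all below the floor of 3 counts per library. AC097104.1 overlaps GLS2 on the same strand and SPRYD4 on the opposite strand.

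SPATA18 and TP53INP1 serve mitochondrial quality control and autophagy. SPATA18 (ENSG00000163071, chromosome 4, 52051331 to 52097292) encodes Mieap, which p53 induces and which takes part in the removal of damaged mitochondrial proteins. It measured 18.1, 16.2 and 8.72 CPM in the A549 DMSO samples and 52.4, 50.1 and 27.4 CPM in the RG7112 samples. Replicate 3 was the lowest of its group in both treatments, and the groups were still apart. The fold was 3.01 (log2 1.59, SE 0.37, edgeR adjusted p = 0.0440), a call that was lost when any 1 of 5 A549 libraries was left out (edgeR adjusted p 0.09 to 0.137) and kept without RG7112 replicate 3. No count was found in any of the 6 H1792 libraries. The A549 level was therefore at least 14.1-fold higher than in H1792 with DMSO and at least 64.7-fold higher with RG7112, against a floor of 3 counts per library.

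TP53INP1 (ENSG00000164938, chromosome 8) encodes a stress-induced nuclear protein that also binds autophagosomes. It measured 4.69, 0 and 6.97 CPM in the A549 DMSO samples and 30.1, 27.2 and 14.9 CPM in the RG7112 samples. DMSO replicate 2 held 0 counts although it had the most counts of the 3 controls. The log2 fold change of 2.68 was the largest of the 7 tested genes and also had the largest error (SE 1.00, edgeR adjusted p = 0.160). In H1792 it held 0, 1 and 0 counts with DMSO and 2, 2 and 1 with RG7112, at or under the floor in both groups. The treated samples, at 0.233 to 0.517 CPM, did not overlap the controls, at 0 to 0.231 CPM, and the exact permutation p (two-sided) was 0.1. DMSO replicate 2 and RG7112 replicate 3 each held 1 count, so only library scaling keeps these groups apart. NDUFAF6 overlaps it on the opposite strand.

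BTG2 (ENSG00000159388, chromosome 1, 203305491 to 203309602) encodes an antiproliferative adaptor of the CCR4-NOT deadenylase that p53 induces after genotoxic stress. It measured 6.25, 3.93 and 0.996 CPM in the A549 DMSO samples and 11.2, 32.4 and 9.78 CPM in the RG7112 samples. The groups did not overlap, but RG7112 replicate 2 stood far above the other two treated samples. The log2 fold change was 2.24 (SE 0.73, edgeR adjusted p = 0.113), and DESeq2 called it at 2.26 (DESeq2 adjusted p = 0.0259, and 0.0259 to 0.284 over all alternatives). In H1792 BTG2 held 0, 0 and 0 counts with DMSO and 3, 2 and 7 counts with RG7112, too few for the filter. With no filter its fitted log2 fold change in H1792 was 4.90, against controls at 0 counts, and it was not called (edgeR adjusted p = 0.0866). Those groups did not overlap, and the two-sided exact permutation p was 0.1, again the smallest possible.

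A549 replicate 3 moved with several of these values. Of both treatments it was the highest sample for FDXR and GDF15, whose exons hold 61.8 and 62.9% GC, and the lowest for SPATA18 (44.2%) and BTG2 (50.3%). It was the highest with DMSO and the lowest with RG7112 for SESN1 (43.4%), TIGAR (44.2%) and TP53INP1 (39.6%), and the reverse for GLS2 (53.7%). Leaving out replicate 3 of both treatments gave 4 called genes, FDXR, SESN1, SPATA18 and TIGAR. CDKN1A in the RG7112 group was 942 CPM in replicate 3, against 203 and 190 CPM in replicates 1 and 2. The part of these replicates in each result was not tested beyond leaving them out and the GC correction.

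In H1792, no member that passed the filter on low counts was called. Of the 4 tested, 0 were called in either direction, where 10.3% of 9914 genes were called higher and 4.34% lower. At an unadjusted p under 0.05 the edgeR count was also 0, and DESeq2 called 0. The treated samples lay above the controls without overlap in 0 of the 4, against 27.4% of all genes tested. Over all 8 analysed genes this was so for 2, BTG2 and TP53INP1, both at a few counts, and for TP53INP1 only through library scaling. The median log2 fold change of the 4 was 0.28, beside 0.01 for all genes. The other 4 genes were SPATA18, GLS2, TP53INP1 and BTG2, with at most 7 counts in any H1792 library.

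**Figure D2:**
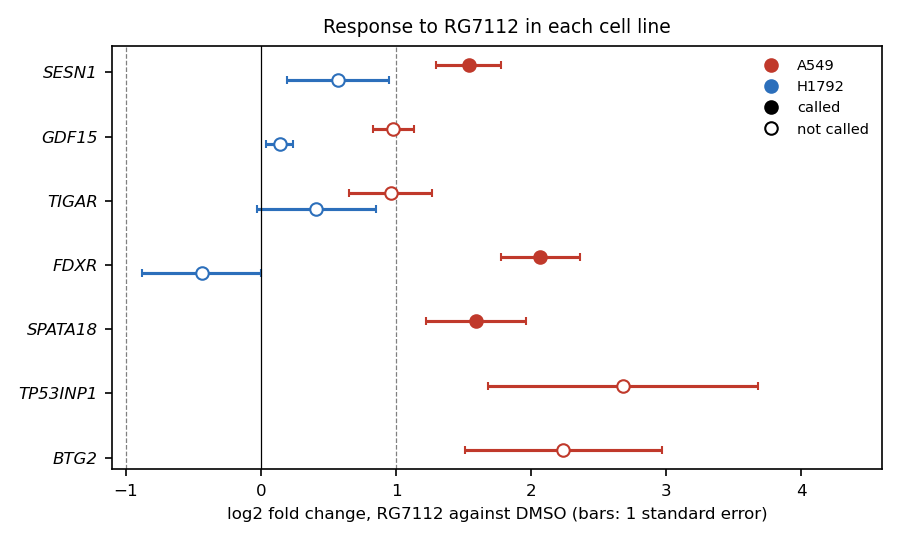
Log2 fold change of RG7112 against DMSO (horizontal axis) for the tested genes in A549 (red) and H1792 (blue), with bars of 1 standard error, filled points for called genes and dashed lines at the fold threshold. The A549 points run from 0.96 for TIGAR to 2.68 for TP53INP1, and the 4 H1792 points from -0.44 for FDXR to 0.57 for SESN1.

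The difference between the lines was tested itself, as the A549 response minus the H1792 response in a fit over the 12 samples, and was called at an adjusted p under 0.05 with no fold threshold. FDXR and GDF15 responded more in A549, so that 2 of the 7 genes in the fit were called higher and 0 lower, and SESN1 and TIGAR did not differ past the adjusted p. The difference for FDXR was 2.60 on the log2 scale (SE 0.52, edgeR adjusted p = 0.00703). That for GDF15 was 0.91 (SE 0.18, edgeR adjusted p = 0.00697), and it dropped to 0.15 (edgeR adjusted p = 0.376, and 4.71e-05 to 0.402 over all alternatives) after the GC correction. SESN1 differed by 1.03 (SE 0.40, edgeR adjusted p = 0.0917), which became 1.56 (edgeR adjusted p = 0.0291, and 0.0291 to 0.274 over all alternatives) after the same correction. TIGAR differed by 0.62 (SE 0.54, edgeR adjusted p = 0.440). Over all genes, 10.4% were called with a higher and 11.4% with a lower response in A549 at an adjusted p under 0.05. SPATA18, TP53INP1 and BTG2 had an H1792 group at or under the floor, so that no difference of responses could be estimated for them, and GLS2 was not tested.

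With DMSO alone, all of the tested members had a higher level in A549, and all but TIGAR were called. Of the 7 tested, 6 were called higher in A549 and 0 lower by the adjusted p and the fold threshold, where 20.4% of 11666 genes were called higher and 14.5% lower. SPATA18, BTG2 and TP53INP1, at or under the floor in the H1792 controls, passed the filter on low counts only through A549. A higher level in A549 was thus favoured in advance for them, and their calls add no support. The A549 and H1792 controls of TP53INP1 overlapped. FDXR was 47.5 ± 17.4 CPM in A549 and 8.04 ± 3.21 CPM in H1792 (SD, n = 3), a log2 difference of 2.58 (SE 0.37, edgeR adjusted p = 0.000203). GDF15 was 543 ± 39.4 against 197 ± 7.09 CPM (log2 1.46, SE 0.13, edgeR adjusted p = 6.12e-06), and SESN1 11.2 ± 2.28 against 4.14 ± 1.27 CPM (log2 1.44, SE 0.30, edgeR adjusted p = 0.00206). TIGAR, at 9.22 ± 0.859 against 5.27 ± 3.01 CPM, was not called (log2 0.83, SE 0.39, edgeR adjusted p = 0.0993). Without H1792 DMSO replicate 3, its highest control, TIGAR was called (log2 1.35, edgeR adjusted p = 0.0127, and 0.0127 to 0.292 over all alternatives).

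The remaining genes were near or at 0 in H1792. SPATA18 was called (edgeR adjusted p = 0.000162), with the bound given above. BTG2 was called (edgeR adjusted p = 0.00528) and was at least 3.65-fold higher in A549. TP53INP1 was called (edgeR adjusted p = 0.0189) from 43 pooled counts in A549 against 1 in H1792, a ratio of 31.1 with a counting interval of 5.3 to 1258. With RG7112 the ratio was 69, from 306 against 5 counts, with an interval of 29.2 to 214. It lost the call without A549 DMSO replicate 3 (edgeR adjusted p = 0.0635) and without any 1 of the 3 H1792 DMSO libraries (edgeR adjusted p 0.0542 to 0.0591). The epithelial and collagen markers given above also differed between the lines, and their part in these differences was not tested.

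Levels of different genes can be compared only roughly per length, as CPM per kb of merged exons. Merged exons join those of all annotated transcripts of a gene, and not only of the expressed ones. In A549 with DMSO, GDF15 stood highest at 260 CPM per kb, followed by FDXR at 13.2. SPATA18 at 2.90, TIGAR at 2.30 and SESN1 at 2.18 CPM per kb were close together, and their means differed by less than the spread of SPATA18 over its samples (34.6% of its mean). BTG2 (1.35) and TP53INP1 (0.685) had SDs of 70.7 and 91.5% of their means, and GLS2 was lowest at 0.0727 CPM per kb. With RG7112 the order began again with GDF15 (514), FDXR (55.7) and SPATA18 (8.76 CPM per kb). In H1792 with DMSO, GDF15 (94.4) again led FDXR (2.23), TIGAR (1.31) and SESN1 (0.808 CPM per kb).

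Other p53 targets of metabolism, from a list of 16 of which 11 were tested in A549, gave 3 called higher and 0 lower with a median log2 fold change of 0.92. Among all genes tested in A549, 3.18% were called higher and 3.01% lower. TP53I3, a quinone oxidoreductase, rose from 353 to 1503 CPM (log2 2.09, SE 0.13, edgeR adjusted p = 0.000348). IGFBP3, which binds insulin-like growth factors, rose by 1.92 (edgeR adjusted p = 0.0124), and PRKAB1, a subunit of AMPK, by 1.81 (edgeR adjusted p = 0.0404). SAT1, the spermidine acetyltransferase, passed the adjusted p at a log2 value of 0.92 (edgeR adjusted p = 0.00663). In H1792, 0 of the 9 tested were called, at a median of -0.36, where 10.3% of all genes were called higher and 4.34% lower. The smallest p-values there belonged to LPIN1 (log2 0.99, edgeR adjusted p = 0.00428), TSC2 (log2 -0.36, edgeR adjusted p = 0.0140) and TP53I3 (log2 -0.58, edgeR adjusted p = 0.0274). By the difference of responses, with no fold threshold, 5 of 11 were higher in A549, namely TP53I3, TSC2, PRKAB1, SAT1 and ALDH4A1. That was so for 10.4% of all genes. How much GC content adds to the values of this list was not tested.

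Targets in arrest, apoptosis and repair were called higher in A549 for 5 of 23 tested and lower for 0, with a median of 0.78. The shares over all genes were 3.18% higher and 3.01% lower. The 5 called were BBC3 (log2 1.76, edgeR adjusted p = 0.00221) and FAS (log2 1.83, edgeR adjusted p = 0.0121), which promote apoptosis, with MDM2, CDKN1A and CYFIP2. In H1792, 5 of 18 were called higher and 1 lower, at a median of 0.33. Over all genes there, 10.3% were called higher and 4.34% lower, so the 1 lower is near that share. The higher ones included PPM1D, the phosphatase that opposes p53 (log2 2.05, edgeR adjusted p = 0.0112), and CCNG1 (log2 1.49, edgeR adjusted p = 0.0126), followed by PLK2, RRM2B and ZMAT3. RRM2B was at or under the floor in the H1792 controls and passed the filter only through its RG7112 samples. A rise was thus favoured for RRM2B, and its call adds no support. ZMAT3 and PPM1D were also low in these controls, at means of 2.78 and 3.56 CPM, so the same may hold for them. DDB2, a damage recognition factor, fell by 1.18 on the log2 scale (edgeR adjusted p = 0.0365), and BAX was at -0.56 (edgeR adjusted p = 0.01). The exons of the 5 called higher hold 36.4 to 47.2% GC, against 51.9% for DDB2 and 58.9% for BAX. The response was higher in A549 for 10 of 23 and lower for 0, with no fold threshold. Among all genes it was higher for 10.4% and lower for 11.4%. The part of GC content in these calls and differences was not tested.

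Paralogs of the members and the ferredoxins that FDXR reduces made up a list of relatives and partners. SESN3 and ACER3 did not pass the filter in either line, and TP53INP2 and BTG3 passed in 1 line each, while ACER1 and FDX1 were not analysed here. In A549, 0 of 3 tested were called, with log2 fold changes of 0.27 for BTG1, -0.90 for BTG3 and 0.27 for FDX2, the ferredoxin that receives electrons from FDXR (edgeR adjusted p 0.544, 0.571 and 0.644). All genes tested in A549 gave 3.18% called higher and 3.01% lower. In H1792, 0 of 3 were called either, where 10.3% of all genes were called higher and 4.34% lower. BTG1 (0.62, edgeR adjusted p = 0.0308) and FDX2 (-0.84, edgeR adjusted p = 0.00783) passed the adjusted p but not the fold threshold, and TP53INP2 (0.41, edgeR adjusted p = 0.505) passed neither. Of the 5 tested for a difference of responses, 1 was called: FDX2 differed between the lines by 1.18 (edgeR adjusted p = 0.0374). By that test 10.4% of all genes responded higher in A549 and 11.4% lower. The count of 1 of 5 is thus near the share over all genes.

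GDF15 and SESN2 are also known targets of the integrated stress response, which acts through ATF4. Of 12 other genes of that response tested in A549, 1 was called higher and 1 lower, at a median of -0.24. Over all genes tested there, 3.18% were called higher and 3.01% lower. NUPR1, a stress-induced chromatin protein, rose by 1.36 (SE 0.22, edgeR adjusted p = 0.0127), and PHGDH, the first enzyme of serine synthesis, fell by 2.71 (SE 0.33, edgeR adjusted p = 0.00426). SHMT2 was at -0.61 (edgeR adjusted p = 0.0227). In H1792, 1 of 13 was called higher, PSAT1 of serine synthesis (log2 3.59, SE 0.43, edgeR adjusted p = 0.00336), at a median of -0.21. Of all genes, 10.3% were called higher in H1792 and 4.34% lower. PHGDH (log2 -0.60, edgeR adjusted p = 0.00506) and ASNS (log2 -0.77, edgeR adjusted p = 0.00671) stayed within the fold threshold there. Responses differed for 3 of 13, with NUPR1 higher in A549 and PHGDH and PSAT1 lower. By the same rule, with no fold threshold, 10.4% of all genes responded higher in A549 and 11.4% lower. The count of 3 is thus near the share over all genes.

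**Figure D3:**
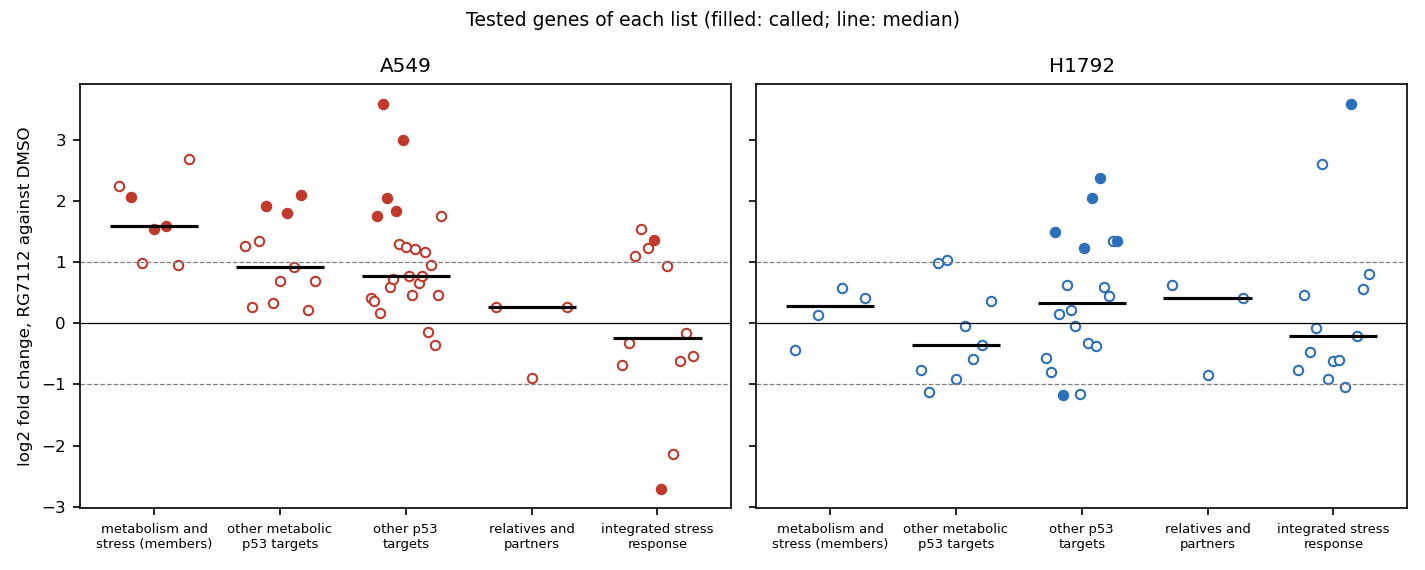
Log2 fold change of RG7112 against DMSO (vertical axis) for each tested gene of the 5 lists in A549 (left) and H1792 (right), with filled points for called genes, a line at each list's median and dashed lines at the fold threshold. The members have a median of 1.59 in A549 and 0.28 in H1792, and the relatives and partners 0.27 and 0.41.

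The genes whose levels most resembled the members over the 12 samples were found by Pearson's r with the mean standardized log2(CPM + 1) of the 4 members tested in both lines, among 11659 genes. They were CEACAM1 (r = 0.986), DSC3 (0.983), PRODH (0.982), AC007325.2 (0.980) and APOL2 (0.980). The samples fell into the same 4 groups for every gene, so that these values largely describe shared group means, and no test is attached. PRODH, proline dehydrogenase, measured 3.58 ± 0.289 CPM in the A549 controls and 27.7 ± 0.4 CPM after treatment (SD, n = 3), and was at 0 in the H1792 controls. AC007325.2 ran close to it in A549, at 5.6 ± 1.63 and 32.7 ± 7.25 CPM. APOL2 was the one of the 5 with a clear level in H1792, at 20.5 ± 6.56 CPM in its controls and 20.2 ± 3.74 CPM in its treated samples.

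**Figure D4:**
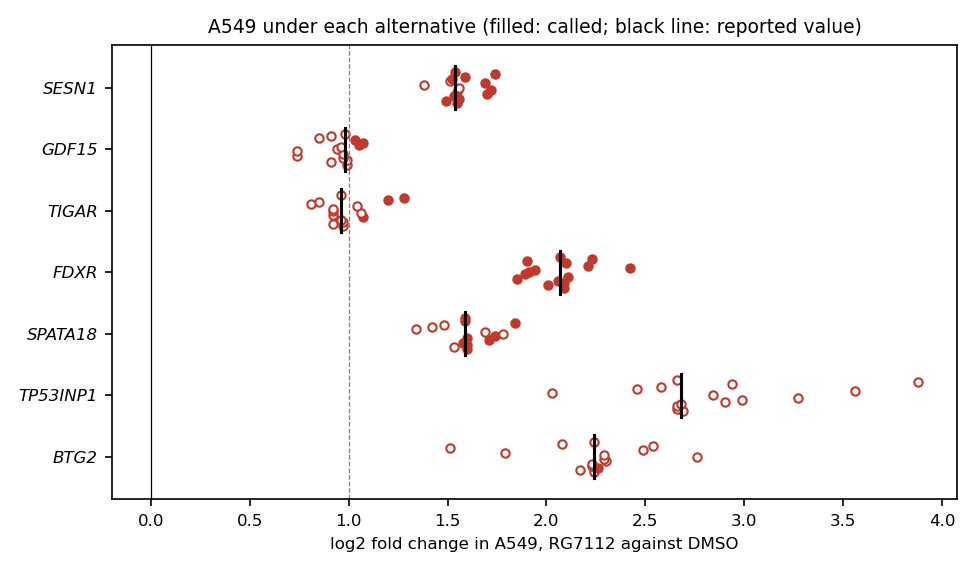
Log2 fold change in A549 (horizontal axis) of the 7 tested genes under 15 alternative ways of processing (circles, filled where called) beside the reported value (black line), with a dashed line at the fold threshold. FDXR is filled throughout, SESN1 in 12 of 15 and SPATA18 in 9 of 15, while every value of all 7 genes lies above 0.

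The alternatives differed in scaling, filter, test, GC correction, block and samples. Over them SESN1 ranged from 1.38 to 1.74 on the log2 scale, SPATA18 from 1.34 to 1.84, GDF15 from 0.74 to 1.07 and TIGAR from 0.81 to 1.28. The widest ranges were those of TP53INP1, 2.03 to 3.88, and BTG2, 1.51 to 2.76. GDF15 and TIGAR were called in 3 of 15 each, BTG2 in 1 and TP53INP1 in 0. The count of called members in A549 was 1 without DMSO replicate 1 and 1 without DMSO replicate 2, with FDXR left in each, and 665 called genes over all fell to 318 and 310.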

How the data were processed

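Poly-A RNA libraries of A549 and H1792 cells (12 samples) were quantified by the authors with kallisto 0.45.0 on Ensembl GRCh38 transcripts and added up to genes; the deposited values are estimated counts (expected counts) as whole numbers, not normalized between samples. Symbols, positions, exon length and GC content came from GENCODE release 29 (17982 of 20595 identifiers with GC content), promoters from RefSeq. Sequencer, read length and culture medium differ between the labels (RPMI-1640 for both lines) and the paper (DMEM for A549), so medium may differ between the lines.

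Counts were tested with edgeR 4.0.16 in R 4.3.3 (filterByExpr with minimum count 10 and total 15, TMM, robust quasi-likelihood), per cell line for responses and over 12 samples for the interaction and the DMSO comparison. SE is the absolute log2 fold change over the root of F. Genes failing the filter were compared by exact permutation of log2(CPM + 1). Floors (3 counts per library) and intervals cover counting error only.

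Alternatives were DESeq2 1.42.0, RLE or library size scaling, no filter, other thresholds, a loess GC correction (span 0.5), the replicate block, and leaving out libraries. The procedure was tested on simulated data. All members, CDKN1A and MDM2, 3 genes of smallest p per list and line, all tested relatives and 5 pattern neighbours are named; other called genes were named after their values were seen. Members and lists were chosen with earlier results of these data known. A gene of the list of relatives and partners is not reported here and was left out of that list.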

Additional observations from a re-analysis of the deposited data

Results flagged for a closer look

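The RG7112 response differed between the cell lines for 2 members by the interaction test. FDXR responded more in A549 by 2.60 on the log2 scale (SE 0.52, edgeR adjusted p = 0.00703), and its difference passed the adjusted p in all 20 refitted alternatives (1.89 to 2.93). GDF15 responded more in A549 by 0.91 (SE 0.18, edgeR adjusted p = 0.00697), and passed in 18 of 20, losing the call at 0.15 in both alternatives with the GC correction.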

How the results depend on the processing

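In A549 the number of called members was 3 and ranged from 1 to 4 over the 6 settings that left out 1 library, with 1 at an adjusted p under 0.01. In H1792 it was 0 under every alternative run. For the difference of responses it was 2 in all 12 settings that left out 1 library, and 1 with an absolute log2 difference over 1; after the GC correction the 2 were FDXR and SESN1. For DMSO it was 6, and 5 to 6 over 12 such settings. TIGAR in H1792 reversed to -0.04 after the GC correction. The cause was not tested. Library size scaling moved the median of all genes to 0.27 in H1792, -0.37 for the difference of responses and 0.35 for DMSO, where TIGAR was then also called (7 members), and the GC correction moved the DMSO median to -0.18.

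Replicates with the same number deviated together with r of 0.0668 to 0.293 in A549 and -0.0386 to -0.000216 in H1792. For different numbers r was -0.232 to 0.144 in A549 and -0.0267 to 0.0392 in H1792. Not every same-numbered value reached a limit of 0.1, so the numbers were not taken to pair the samples. In A549 every same-numbered value was positive, and a shared replicate effect was not tested beyond the replicate block. With the replicate block the counts were 3, 0, 2 and 6, and with block and GC correction 3, 0, 2 and 5, TP53INP1 being lost for DMSO (edgeR adjusted p = 0.0538). The filter on low counts kept GLS2 out of the reported fits, and SPATA18, TP53INP1 and BTG2 out of that of H1792; none was called there in the alternatives that let it in.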
